A study of Mus musculus with 6 samples.

Results

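The protein-coding genes of the Hox clusters A, B, C and D were followed in mouse embryonic spleens that differed in their copies of Tlx1. The rule takes every such gene by its symbol and uses no measured value, although the clusters were taken up with earlier results of these data known. It gives 38 genes, of which 37 had a probe set carrying their symbol alone, 1 per gene, as did 19938 genes in all. Hoxb8, a trunk-level gene of cluster B, had no probe set that carried its symbol alone and was not measured here.

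Hox genes encode homeodomain transcription factors that give cells their position along the body axis. In each cluster the genes lie in the order of their paralog numbers, and the low-numbered genes are in general active earlier and closer to the head than the high-numbered genes. Retinoic acid is a well known activator of low-numbered Hox genes, whereas Polycomb proteins hold silent Hox genes in a repressed chromatin state. Tlx1, also named Hox11, is a homeobox gene outside the 4 clusters that the spleen primordium needs in order to grow.

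The spleens were of stage E13.5, 3 arrays from Tlx1 heterozygous embryos and 3 from Tlx1 homozygous embryos, whose dams lived in a barrier facility. No allele is named in the labels; homozygous is taken to refer to an altered Tlx1 allele, of which the heterozygous controls then carried a copy too. Total RNA was labelled with biotin and hybridised to Affymetrix arrays, 1 array per sample. Nothing in the labels tells separate embryos from pools or repeats, so p-values reflect only how far these particular samples spread, and part of that may be technical. Every probe set level below is a GCRMA intensity on a linear scale, and every log2 fold change is homozygous minus heterozygous on the scale of log2(intensity + 1), which slightly understates the change of dim probe sets. A gene is called higher or lower where the limma p-value, adjusted by Benjamini and Hochberg over the 18710 genes tested, is below 0.05.

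The Tlx1 probe set fell from 750 ± 65.3 (SD, n = 3) in heterozygous to 193 ± 19.9 (SD, n = 3) in homozygous spleens, a log2 fold change of -1.95 ± 0.09 (SE; limma adjusted p = 1.3e-05). The position of that probe set in Tlx1, and so its relation to the altered stretch, is unknown here. Array medians were between 106 and 110.5. Correlations of log2 values over the genes tested were 0.995 to 0.997 within groups and 0.989 to 0.993 between groups. The Y-linked gene Eif2s3y read 600, 398 and 735 on heterozygous arrays 1, 2 and 3, and 391 to 417 on the homozygous arrays. The heterozygous arrays thus differed among themselves in this gene. Heterozygous arrays 1 and 3 also read above every homozygous array, so its level went partly with genotype.

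Hox genes were mostly higher in the homozygous spleens. All 37 measured members passed the filter on low values; 15 were called higher, 1 was called lower and 21 were not called. Among all 18710 genes, 17% were called in either direction, 10.4% higher and 6.56% lower. The estimate was above 0 for 33 members and below 0 for 4, with a median log2 fold change of 0.25 against 0.02 over all genes. The 3 homozygous arrays lay above the 3 heterozygous arrays for 19 members and below them for 1, against 21.1% and 17.2% of all genes. The largest rises, as ratios of the group mean intensities, were those of Hoxb5 (1.66-fold), Hoxc4 (1.62-fold) and Hoxc6 (1.55-fold), and the fall was that of Hoxd8. In these whole-organ samples, more or fewer cells of a type and more or less RNA per cell cannot be told apart.

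**Figure D1:**
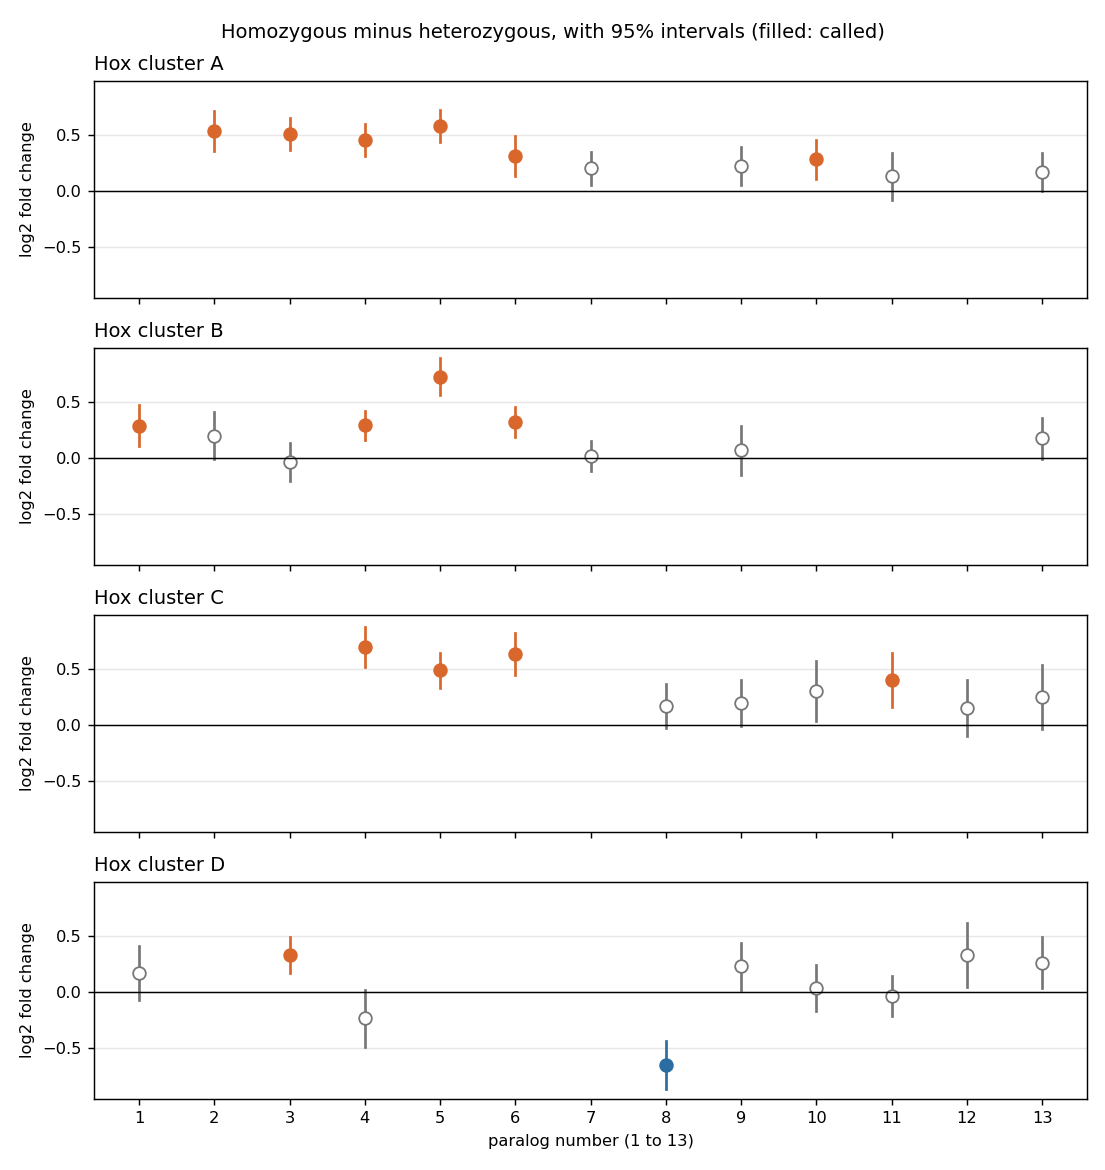
Log2 fold change of each measured Hox gene, homozygous minus heterozygous (vertical axis), against its paralog number from 1 to 13 (horizontal axis), 1 panel per cluster, with 95% confidence intervals as vertical lines and called genes as filled points. Filled points above 0 lie mainly at numbers up to 6, from 0.29 for Hoxb4 to 0.73 for Hoxb5 at numbers 4 to 6 of cluster B, and the only filled point below 0 is Hoxd8 at -0.66.

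By paralog number, the calls lay mainly in groups 1 to 6. In groups 4 to 6, 9 of 10 measured genes were called higher, with a median of 0.47 and Hoxd4 as the exception. Over groups 1 to 6 the count was 13 of 17. In groups 7 to 13 it was 2 of 20 called higher (10%) and 1 called lower (5%), near the 10.4% and 6.56% of all genes. Their median was 0.19, and 18 of those 20 estimates were above 0. A mean below the array medians was seen for 16 of the 20. Over all genes the median was 0.13 in the dimmest quartile of intensity and 0.11 in the next. The borders of these ranges of paralog groups were set after the values were seen. Under the usual division into anterior (1 to 3), central (4 to 8) and posterior (9 to 13) genes, 4 of 7, 9 of 14 and 2 of 16 were called higher, with medians of 0.29, 0.31 and 0.21. Over the 37 genes, Spearman's rho of the log2 fold change with the paralog number was -0.295, given as a description, since all points come from the same 6 arrays.

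The position of a gene went together with the brightness of its probe set. The mean over the 6 arrays was below the array medians for 15 of the 16 posterior genes and for 3 of the other 21. Of the 18 Hox genes below the array medians 3 were called higher, and of the 19 above them 12 were called higher and 1 lower. Genes in general had the opposite order, with 13.4%, 18.7%, 5.82% and 3.74% called higher from the dimmest to the brightest intensity quartile. The Hox genes called higher in these quartiles were 3 of 12, 2 of 10, 5 of 9 and 5 of 6, and their median log2 fold changes were 0.26, 0.17, 0.31 and 0.40 against 0.13, 0.11, -0.05 and -0.05 for all genes. The part that brightness has in the order by paralog number was not tested.

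Promoter windows of 3 genes are shown before the values by cluster, because they belong to the largest rise among genes with a window (Hoxc4), to its paralog in cluster D that was not called (Hoxd4), and to the gene that fell (Hoxd8). They are from RefSeq, build GRCm38.p6, and run 5′ to 3′ on the strand of the gene from 250 bases before to 50 bases after the annotated start; capitals mark AGGTCA, the half-site bound by retinoic acid receptors and other nuclear receptors, or its reverse complement TGACCT. The windows lie at chr15:103034145-103034444 (plus strand) for Hoxc4, chr2:74721728-74722027 (plus strand) for Hoxd4 and chr2:74704365-74704664 (plus strand) for Hoxd8.
Hoxc4: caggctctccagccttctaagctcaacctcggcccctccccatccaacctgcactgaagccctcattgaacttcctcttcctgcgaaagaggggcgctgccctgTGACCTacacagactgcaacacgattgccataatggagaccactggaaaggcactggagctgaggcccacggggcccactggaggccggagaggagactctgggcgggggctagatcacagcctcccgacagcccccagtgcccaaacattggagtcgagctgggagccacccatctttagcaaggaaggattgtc
Hoxd4: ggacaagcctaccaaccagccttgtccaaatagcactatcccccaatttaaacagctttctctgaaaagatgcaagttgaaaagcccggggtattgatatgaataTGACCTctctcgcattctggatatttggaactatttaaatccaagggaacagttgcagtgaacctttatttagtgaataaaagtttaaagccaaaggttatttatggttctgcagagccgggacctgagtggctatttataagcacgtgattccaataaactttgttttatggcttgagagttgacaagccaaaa
Hoxd8: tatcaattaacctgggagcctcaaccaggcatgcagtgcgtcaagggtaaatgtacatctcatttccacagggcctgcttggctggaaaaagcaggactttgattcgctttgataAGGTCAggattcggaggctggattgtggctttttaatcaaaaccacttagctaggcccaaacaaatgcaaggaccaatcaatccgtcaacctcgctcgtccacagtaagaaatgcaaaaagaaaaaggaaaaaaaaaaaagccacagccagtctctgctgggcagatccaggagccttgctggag
The half-site begins at -146, -145 and -135 from the start in Hoxc4, Hoxd4 and Hoxd8, and so is present in genes that were called higher, not called and called lower. On either strand AGGTCA was in 7 of the 24 windows that RefSeq gave for 22 of the 38 members (Hoxa5, Hoxb4, Hoxc4, Hoxd3, Hoxd4, Hoxd8 and Hoxd10), and in 16.3% of 32851 mouse windows of the same length. The paired motifs known as the DR5 and DR2 retinoic acid response elements were in none of the 24 windows and in 0.0974% and 0.268% of all windows, which says only that those letters are not in these stretches. TGATTNAT, the site of a Hox protein with a Pbx partner, was in the Hoxa2 and Hoxd11 windows and in 3.22% of all windows. TAATTA, a general homeodomain core, was in 2 windows, both of Hoxd11, and in 5.29% of all. No printed hit overlapped a hit of another motif searched.

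Cluster A, on chromosome 6, rose over most of its measured length. Of its 10 genes 6 were called higher (60%) and none lower, against 10.4% and 6.56% of all genes. The homozygous arrays lay wholly above the heterozygous arrays for 9 of the 10, against 21.1% of all genes. Its estimates ran from 0.13 to 0.58, with a median of 0.30. The genes at the low-numbered end, Hoxa2 to Hoxa6, were all called, and of the genes beyond them Hoxa10 alone was.

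Hoxa2, which sets the identity of the second pharyngeal arch and of hindbrain segments, read 196, 197 and 203 on the heterozygous arrays and 290, 318 and 262 on the homozygous arrays. The log2 fold change was 0.54 ± 0.08 (SE; limma adjusted p = 0.00428), and the 3 heterozygous values lay within a few units of each other, far below the lowest homozygous value. Hoxa3, needed for the thymus, the parathyroids and the throat cartilages, read 189, 194 and 196 against 286, 277 and 261. Its log2 fold change was 0.51 ± 0.06 (SE; limma adjusted p = 0.00205), again with no overlap of the groups. Hoxa4, a gene of the neck vertebrae, read 327, 318 and 316 against 436.5, 417 and 463.5. The groups were apart on all arrays, with a log2 fold change of 0.45 ± 0.06 (SE; limma adjusted p = 0.00366).

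Hoxa5, required for the lung and for the vertebrae between neck and chest, read 1094, 1126 and 1099 on heterozygous and 1728, 1686 and 1555 on homozygous arrays. This was the largest change in the cluster, a log2 fold change of 0.58 ± 0.06 (SE; limma adjusted p = 0.00123), and the lowest homozygous array was well above the highest heterozygous array. Hoxa6, its neighbour, read 161, 178 and 157 against 205, 221 and 191. The groups did not overlap, and the log2 fold change was 0.31 ± 0.08 (SE; limma adjusted p = 0.0302). The RefSeq model of Hoxa3 spans Hoxa4, Hoxa5 and Hoxa6, and where in the locus each probe set lies is not given here, so signal shared between these 4 genes cannot be told apart.

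At the high-numbered end the differences were smaller. Hoxa10, which acts in the uterus and the lower spine, read 49.7, 51.4 and 51.7 against 58.2, 59.7 and 68.8. The groups did not overlap, with a log2 fold change of 0.28 ± 0.08 (SE; limma adjusted p = 0.0383). Hoxa7 (361 and 415 as group means; 0.20, adjusted p = 0.0658 by limma) and Hoxa9, a gene of blood progenitors (0.22, adjusted p = 0.0774 by limma), had groups that did not overlap and missed the threshold. Hoxa13, a gene of the hindgut and the digits, had an estimate of 0.17 (95% interval -0.0018 to 0.34), also with groups that did not overlap. For Hoxa11, a gene of the kidney and the limb, the groups overlapped and the estimate was 0.13 (95% interval -0.08 to 0.34). The calls of Hoxa6 and Hoxa10 hung on single arrays: Hoxa6 lost its call without heterozygous array 1 or 3 or homozygous array 1 or 2 (estimates of 0.26 to 0.31), Hoxa10 in every such fit but the 1 without homozygous array 2 (0.21 to 0.33 in the others), and Hoxa7 gained a call without homozygous array 2 (0.24).

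Cluster B, on chromosome 11, was uneven. Of 9 measured genes 4 were called higher (44.4%) and none lower, against 10.4% and 6.56% of all genes. The median was 0.20, with estimates from -0.04 to 0.73. Called genes lay directly beside genes whose estimates were close to 0.

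Hoxb5, which acts in the neural crest of the gut and in the placing of the shoulder, read 768.5, 712.5 and 756 on heterozygous and 1146, 1237 and 1330 on homozygous arrays. Its log2 fold change of 0.73 ± 0.07 (SE, 95% interval 0.56 to 0.89; limma adjusted p = 0.000774) was the largest of the 37 genes, and the lowest homozygous array stood far above the highest heterozygous array. Hoxb4, known for expanding blood stem cells, read 469, 466 and 463.5 against 558, 575 and 579. The groups were well apart, with a log2 fold change of 0.29 ± 0.06 (SE; limma adjusted p = 0.0126). Hoxb6, a gene of the lateral plate mesoderm, read 590.3, 610 and 574 against 747, 729 and 738. There was no overlap, and the log2 fold change was 0.32 ± 0.06 (SE; limma adjusted p = 0.0101).

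Hoxb1, a gene of hindbrain segment identity that retinoic acid controls directly, read 106, 102 and 117 against 124, 144 and 130. The groups were close but did not overlap, and the log2 fold change was 0.29 ± 0.08 (SE; limma adjusted p = 0.044). Hoxb3 went from a mean of 734 to 717, an estimate of -0.04 (95% interval -0.21 to 0.14), and Hoxb7 from 372 to 376, an estimate of 0.02 (-0.12 to 0.15). By paralog number Hoxb3 lies next to Hoxb4 (0.29) and Hoxb7 next to Hoxb6 (0.32), both called higher. Within each array, the log2 ratio of Hoxb6 to Hoxb7 was higher by 0.30 in homozygous spleens. Hoxb3 was also set against Hoxb5, which comes after Hoxb4 by number and had the largest rise. The log2 ratio of Hoxb5 to Hoxb3 averaged 0.02 in heterozygous and 0.79 in homozygous spleens. Neither ratio had overlap between groups. These pairs were picked after the values were seen. Hoxb2 (0.20), Hoxb9 (0.07) and Hoxb13 (0.17) had overlapping groups and were not called.

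The RefSeq model of Hoxb3 spans Hoxb4, so their signals could be shared, and that of Hoxb5 and of Hoxb6 each overlap the antisense gene Hoxb5os. Hoxb4 lost its call without heterozygous array 2 (0.29, limma adjusted p = 0.05002 in that fit). Its call was also lost with the level of Y-linked genes as a covariate (0.29, limma adjusted p = 0.0732). Hoxb1 lost its call in every fit with 1 array left out except that without heterozygous array 3, with estimates of 0.23 to 0.33.

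Cluster C, on chromosome 15, rose at its low-numbered end. Of 9 measured genes 4 were called higher (44.4%) and none lower, against 10.4% and 6.56% of all genes. The median was 0.30, and every estimate was above 0, from 0.15 to 0.70. The cluster has no paralogs 1 to 3 in the mouse, and its first 3 genes, Hoxc4, Hoxc5 and Hoxc6, were all called.

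Hoxc4, a gene of the neck and chest vertebrae and the first of the promoter windows above, read 354, 390 and 352 on heterozygous and 612, 625 and 543 on homozygous arrays. The groups were far apart, with a log2 fold change of 0.70 ± 0.08 (SE; limma adjusted p = 0.00124). Hoxc5 read 1178, 1173 and 1060 against 1603, 1653 and 1528. Its log2 fold change was 0.49 ± 0.07 (SE; limma adjusted p = 0.00359), with the lowest homozygous array well above the highest heterozygous array. Hoxc6, a gene of the forelimb and chest level, read 146, 143 and 121 against 206, 209 and 220. Its log2 fold change was 0.63 ± 0.08 (SE; limma adjusted p = 0.00268), with no overlap.

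Beyond Hoxc6 the estimates dropped. Within each array the log2 ratio of Hoxc6 to Hoxc8, its neighbour, was higher by 0.47 in the homozygous spleens with no overlap between groups, a pair picked after the values were seen. In cluster A the ratio of Hoxa6 to Hoxa7 differed by 0.11, with overlap. Hoxc8 itself had groups that did not overlap (0.17, limma adjusted p = 0.206). Hoxc11, which with its paralogs patterns the hindlimb and the kidney, read 23.3, 29.9 and 26.8 against 36.0, 31.4 and 39.1. The groups came within a few units of each other without overlapping, and the log2 fold change was 0.40 ± 0.11 (SE; limma adjusted p = 0.0365). Hoxc9 (0.20), Hoxc10 (0.30), Hoxc12 (0.15) and Hoxc13, a gene of hair and nails (0.25), had overlapping groups and were not called. The call of Hoxc11 was lost without heterozygous array 1 or 3 or homozygous array 1 or 3 (0.31 to 0.41), and Hoxc10 (0.40) and Hoxc12 (0.28) gained a call without homozygous array 2.

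**Figure D2:**
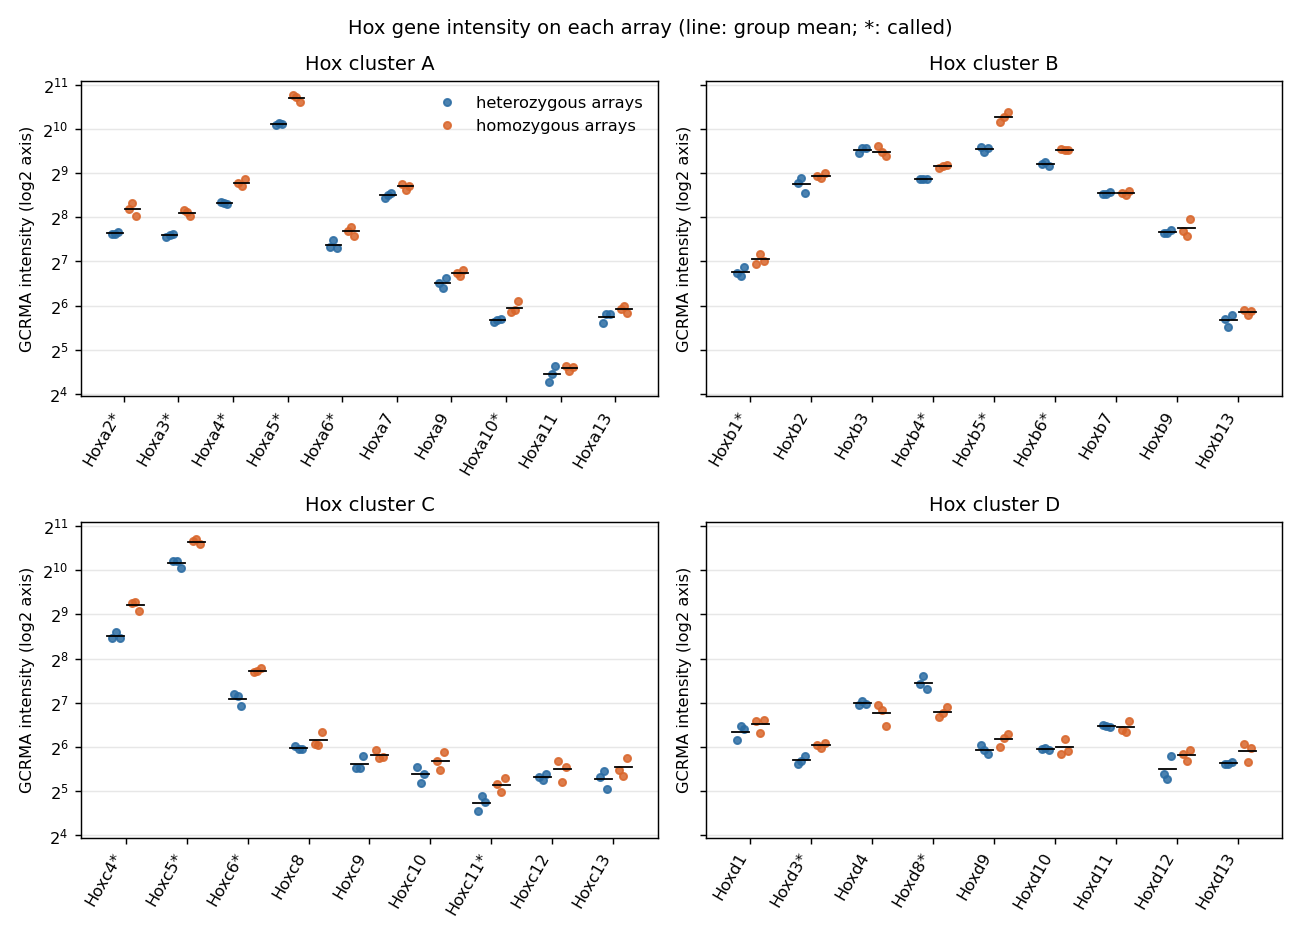
GCRMA intensity of each measured Hox gene on each array (vertical log2 axis), 1 panel per cluster with genes in order of paralog number along the horizontal axis; blue points are the 3 heterozygous arrays, orange points the 3 homozygous arrays, lines the group means, and an asterisk marks a called gene. The 2 colours separate clearly at Hoxa5 (1094 to 1126 against 1555 to 1728), Hoxb5 and Hoxc4, and Hoxd8 is the called gene whose orange points (102.5 to 121) lie below the blue ones (158 to 195.5).

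Cluster D, on chromosome 2, had 1 gene called higher and 1 called lower of 9 measured. These shares of 11.1% each stood near the 10.4% higher and 6.56% lower among all genes. In this cluster 6 estimates were above 0 and 3 below, and the median was 0.17. Hoxd8, a trunk-level gene, read 172, 195.5 and 158 on heterozygous arrays and 102.5, 109 and 121 on homozygous arrays. Its log2 fold change was -0.66 ± 0.09 (SE, 95% interval -0.87 to -0.44; limma adjusted p = 0.00378), and the highest homozygous array was well below the lowest heterozygous array. Its measured paralog in cluster C, Hoxc8, was not called and had an estimate of 0.17.

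None of the neighbours of Hoxd8 was called lower. Hoxd3, needed for the topmost neck vertebrae, read 49.1, 51.0 and 55.9 against 66.4, 62.8 and 67.7. The groups did not overlap, and the log2 fold change was 0.33 ± 0.07 (SE; limma adjusted p = 0.017). Hoxd4 read 123, 132 and 126 against 123, 114 and 89.1, with overlap of the groups and an estimate of -0.24 (95% interval -0.49 to 0.02; limma adjusted p = 0.175). It was the only gene of paralog groups 4 to 6 that was not called: Hoxa4, Hoxb4 and Hoxc4 all were. Hoxd9 had an estimate of 0.23 (limma adjusted p = 0.118).

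Within each array, the log2 ratio of Hoxd8 to Hoxd9 was 1.37, 1.66 and 1.46 in heterozygous and 0.67, 0.55 and 0.61 in homozygous spleens, a difference of -0.89 with no overlap. The ratio of Hoxd8 to Hoxd3 differed by -0.99, also with no overlap, and that of Hoxd8 to Hoxd4 by -0.42 with overlap. These neighbours were picked after the values were seen. The ratio of Hoxd4 to Hoxd3 differed by -0.57 with no overlap, although the RefSeq model of Hoxd3 spans Hoxd4.

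At the high-numbered end of cluster D, genes of the digits and the urogenital tract, none was called. Hoxd10 (0.03) and Hoxd11 (-0.04), whose RefSeq models overlap each other, had estimates close to 0, and Hoxd12 (0.33) and Hoxd13 (0.26) had higher estimates with overlapping groups. Hoxd1, at the other end, had an estimate of 0.17 with overlap. The call of Hoxd3 was lost without heterozygous array 1 or 2 or homozygous array 1 or 3 (0.29 to 0.32), and calls were gained by Hoxd12 without heterozygous array 3 (0.48) and by Hoxd13 without homozygous array 2 (0.38). The call of Hoxd8 was kept in every alternative run.

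Read across the clusters, paralog groups 5 and 6 were each called in all 3 clusters that hold them, with medians of 0.58 and 0.32. Group 3 was called in 2 of 3 genes (not Hoxb3) and group 4 in 3 of 4. Group 2 was called in 1 of 2 (Hoxa2), as was group 1 (Hoxb1). Groups 7, 9, 12 and 13 had no call among 2, 4, 2 and 4 genes, group 8 had the fall of Hoxd8 alone, and groups 10 and 11 had 1 call each of 3 genes.

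The clusters also hold microRNA genes, of which 5 were tested by probe sets of their own: Mir10a, Mir196a-1, Mir196a-2, Mir196b and Mir615. Mir10b of cluster D was not analysed here. The mature sequences below (RefSeq, GRCm38.p6) show which of these genes share a seed, bases 2 to 8, in capitals. The locations are chr15:102973365-102973386 (plus strand) for the copy of miR-196a-5p at Mir196a-2, chr6:52230129-52230150 (minus strand) for miR-196b-5p, chr11:96317186-96317208 (plus strand) for miR-10a-5p and chr15:103014969-103014990 (plus strand) for miR-615-3p.
miR-196a-5p: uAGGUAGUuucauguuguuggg
miR-196b-5p: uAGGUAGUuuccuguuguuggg
miR-10a-5p: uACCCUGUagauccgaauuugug
miR-615-3p: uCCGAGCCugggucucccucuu
miR-196a and miR-196b share their seed, and miR-196 is known to target Hox transcripts, among them that of Hoxb8. The array measured labelled total RNA at the hairpin genes and not the mature forms. Mir615, which lies within the RefSeq model of Hoxc5, went from 211 ± 4.36 to 281 ± 47.3 (SD, n = 3 each), a log2 fold change of 0.40 ± 0.11 (SE; limma adjusted p = 0.0437). Mir196a-2, in the same cluster C, went from 21.8 to 27.4 (0.32, limma adjusted p = 0.0262). Mir196b of cluster A (0.10), Mir196a-1 of cluster B (-0.05) and Mir10a of cluster B (-0.07) were not called.

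Among all 9 non-coding genes of the clusters that were tested, 2 were called higher and none lower, against 10.4% and 6.56% of all genes. Their median was 0.12. The long non-coding genes were Hottip (0.12), Hoxaas2 (0.24), Hoxd3os1 (0.03) and Haglr (0.29), and none of them was called. Of the array omissions, the call of Mir615 held only without homozygous array 2, and that of Mir196a-2 only without heterozygous array 3 (estimates in the other omissions 0.28 to 0.42 and 0.26 to 0.34). With the level of Y-linked genes as a covariate, neither Mir615 (0.41, limma adjusted p = 0.135) nor Mir196a-2 (0.36, limma adjusted p = 0.0799) was called.

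Of 18 genes tested that flank the 4 clusters 1 was called higher and none lower, against 10.4% and 6.56% of all genes; 7 estimates were above 0 and 11 below, and the median was -0.03. The called gene was Smug1, a DNA repair enzyme gene beside cluster C (0.33 ± 0.07 SE; limma adjusted p = 0.0186), whose call was lost without heterozygous array 1 (0.27) or homozygous array 1 (0.33). Its call was also lost with the level of Y-linked genes as a covariate (0.25, limma adjusted p = 0.133). Evx1, a homeobox gene at the end of cluster A beyond Hoxa13, went from 38.9 ± 1.22 to 54.3 ± 6.15 (SD, n = 3 each; log2 fold change 0.47 ± 0.08 SE, limma adjusted p = 0.0099). It was the only call among 7 caudal, ParaHox and Evx genes tested, all of which had estimates above 0 (median 0.31); the count was 2 without heterozygous array 1 or homozygous array 3, and 3 with array weights, the replicate block or the Y-linked covariate. Group means of Evx1, Gsx2, Cdx2, Pdx1 and Gsx1 lay below the array medians. Over all genes, the median log2 fold change was 0.13 in the dimmest intensity quartile and 0.11 in the next.

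The retinoic acid pathway, which acts upstream of many low-numbered Hox genes, had 5 genes called higher and 1 lower of 17 tested (median 0.10), against 10.4% and 6.56% of all genes. Cyp26b1, whose enzyme degrades retinoic acid, fell from 442 to 236 (-0.89 ± 0.12 SE; limma adjusted p = 0.0029), whereas Cyp26c1, another degrading enzyme, rose from 58.7 to 73.7 (0.32 ± 0.09 SE; limma adjusted p = 0.0419). Rarb, a retinoic acid receptor that retinoic acid itself induces, rose from 630.5 to 937 (0.57 ± 0.07 SE; limma adjusted p = 0.00251). Dhrs3, a retinaldehyde reductase, rose by 0.45 (limma adjusted p = 0.0108) and Crabp2, a retinoic acid carrier protein, by 0.43 (limma adjusted p = 0.0168). The other gene called higher was Stra6, a retinol uptake receptor (0.41, limma adjusted p = 0.00834); it and Cyp26c1 are named after their values were seen. The title of the series names retinoic acid signalling, so this list is not independent of the study.

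Of all genes tested, 6.56% were called lower and 10.4% higher. Of the TALE homeodomain proteins, with which Hox proteins bind DNA, 2 of 8 tested genes were called lower and none higher (median 0.01). They were Pknox2 (-0.45, limma adjusted p = 0.00851) and Pknox1 (-0.31, limma adjusted p = 0.0242). Among 20 Polycomb group genes 1 was called higher and 3 lower (median -0.03), a share near the 17% of all genes called in either direction. Cbx7 rose by 0.40, and Bmi1 had -0.32, Suz12 -0.22 and Pcgf6 -0.21 (limma adjusted p = 0.0249, 0.0259, 0.0496 and 0.0469). None of 13 genes tested in the trithorax and H3K27 demethylase list was called by limma, the smallest p being that of Rbbp5 (-0.18, adjusted p = 0.112). That list also held other chromatin regulators, among them Dot1l, Kat6a and Hdac3. Leaving out single arrays kept the calls of Pknox2, Cyp26b1, Rarb, Dhrs3 and Crabp2; Pknox1 (-0.34 to -0.25 where lost), Cbx7 (0.33 to 0.42), Bmi1 (-0.36 to -0.27), Suz12 (-0.25 to -0.19) and Pcgf6 (-0.22 to -0.19) each lost theirs without heterozygous array 1, without heterozygous array 2, and in 2 or 3 further omissions. With the level of Y-linked genes as a covariate, Dhrs3 (0.37, limma adjusted p = 0.074), Crabp2 (0.33, limma adjusted p = 0.113), Pknox1, Bmi1, Suz12 and Pcgf6 were not called. The retinoic acid genes called higher were then 2 instead of 5, and the Polycomb genes called lower 0 instead of 3.

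**Figure D3:**
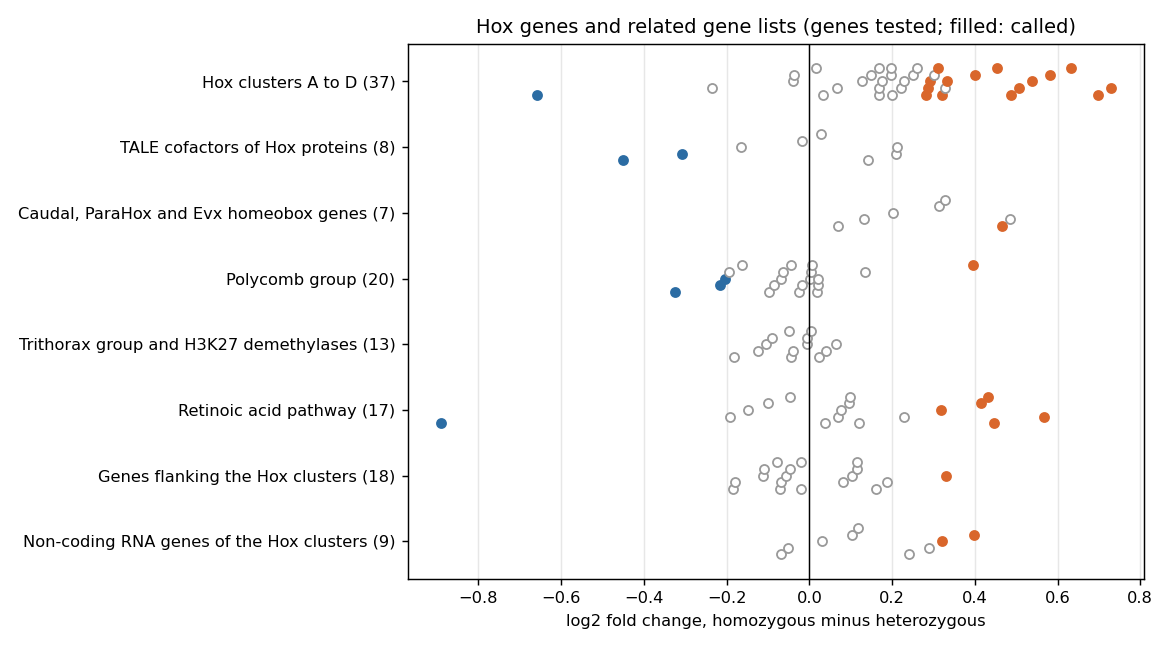
Log2 fold change, homozygous minus heterozygous (horizontal axis), of each gene tested in the Hox clusters and in 7 related lists (rows, with the number of genes tested); orange is called higher, blue called lower, open grey not called, and the vertical spread of points has no meaning. The Hox row lies mostly right of 0 (median 0.25), while the flanking, Polycomb and trithorax rows are centred near 0 (medians of -0.03, -0.03 and -0.04).

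Markers of other tissues moved with the same groups, and their part in the Hox differences was not tested. Over all genes, 10.4% were called higher and 6.56% lower, with 13.4% and 18.7% higher in the dimmest and the next intensity quartile. Epithelial markers were called higher in 5 of 11 (summed intensity 2862 to 3610 in heterozygous and 3736 to 4094 in homozygous spleens), pancreas markers in 3 of 10 (1400 to 1958 and 2912 to 6244) and markers of enteric neurons and neural crest in 4 of 9 (1404 to 1508 and 1992 to 2146). Of 10 kidney and gonad markers 1 was called higher and 1 lower (1312 to 1331 and 1435 to 1523). Markers of spleen mesenchyme were called lower in 6 of 8, Tlx1 among them (11200 to 11400 and 8631 to 9331), of endothelium in 9 of 10 (7679 to 8076 and 5365 to 5684) and of erythroid cells in 6 of 8 (3189 to 3423 and 2069 to 2210). No marker was called among 7 of liver (1283 to 1927 and 1076 to 2234) or 9 of macrophages (2612 to 2690 and 2726 to 2822), and no marker of any list was at 0. Most of the difference in the pancreas sum came from Cpa1 (534 to 1664 as group means, called higher) and Gcg (596 to 2413, not called, with overlapping groups).

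Of the 16 Hox calls, 10 were kept in each of the 6 fits that left out 1 array: Hoxa2, Hoxa3, Hoxa4, Hoxa5, Hoxb5, Hoxb6, Hoxc4, Hoxc5, Hoxc6 and Hoxd8. The number called higher was between 10 (without heterozygous array 1 or homozygous array 1) and 17 (without homozygous array 2). With the level of Y-linked genes as a covariate it was 9, of which 8 were among the 15. Hoxa6, Hoxa10, Hoxb1, Hoxb4, Hoxb6, Hoxc11 and Hoxd3 lost their calls in that fit, and Hoxd12 gained a call. Hoxb6 was the only 1 of the 10 to lose its call there (0.28, limma adjusted p = 0.0759), which leaves 9 genes that were called in all 19 alternatives.

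**Figure D4:**
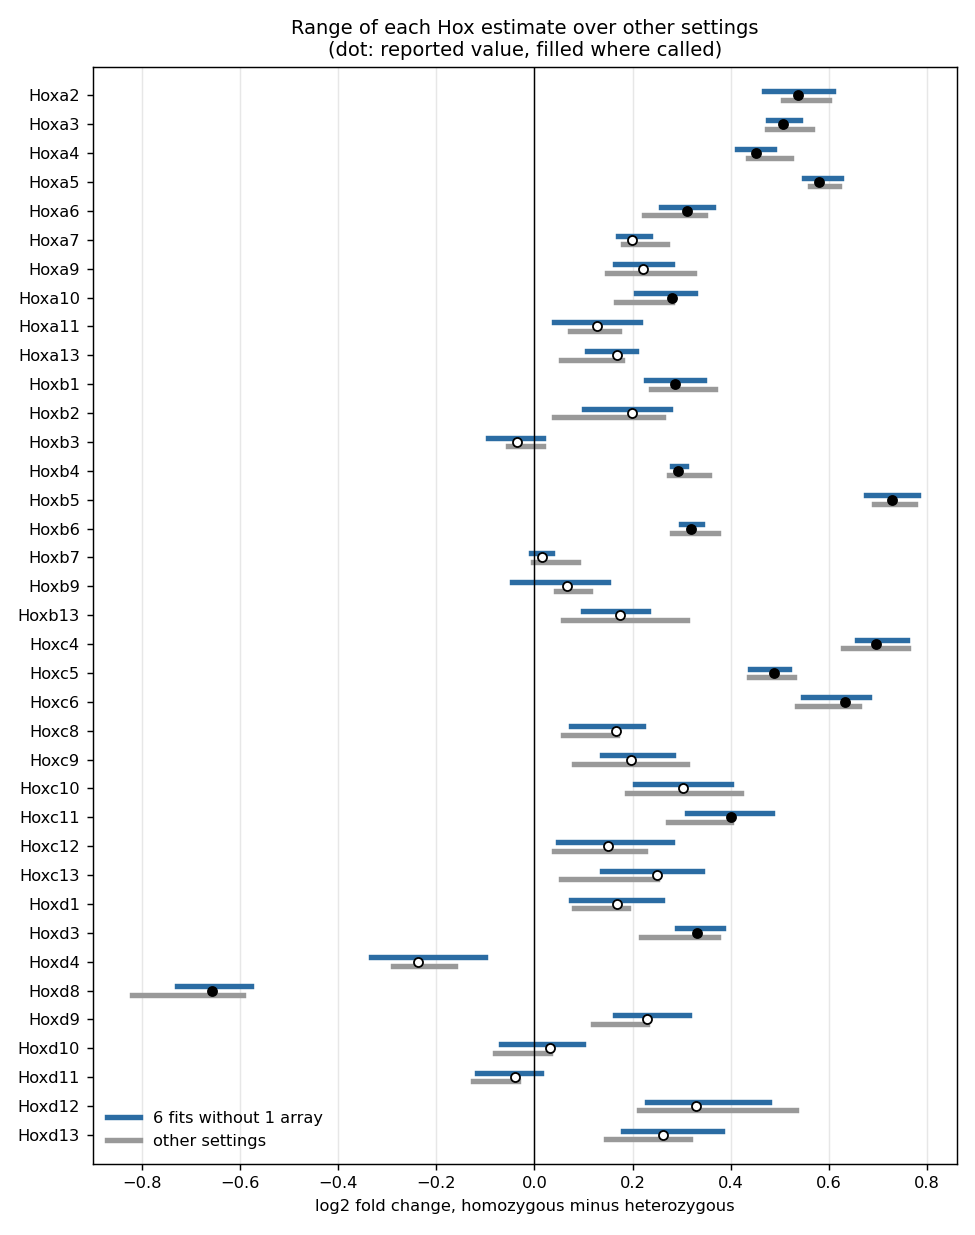
Reported log2 fold change of each measured Hox gene (black point, filled where called) with the range over the 6 fits that left out 1 array (blue line) and over the 13 other settings (grey line); the horizontal axis is homozygous minus heterozygous. The lines of Hoxb5, Hoxc4, Hoxc6 and Hoxa5 stay well above 0 and those of Hoxd8 below it, whereas those of Hoxb3, Hoxb7 and Hoxd10 cross 0 under other settings.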

How the data were processed

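In all, 6 samples, 3 per group, were compared by gene expression on 1-colour Affymetrix arrays. The deposited values are intensity values on a linear scale, summarised per probe set by the authors with GCRMA, per the submitters' processing notes; the build, versions and any other step were not found in the labels. Of 35512 probe sets, 21789 had 1 gene symbol in the platform annotation, 1621 several and 12102 none. Probe sets with 1 symbol and log2 of at least 4 on at least 3 arrays were kept (20424), and the brightest per gene by mean was used (18710 genes). log2(intensity + 1) was fitted with limma 3.58.1 (R 4.3.3; lmFit and eBayes, no covariate, all 6 arrays), with Benjamini-Hochberg adjustment over all 18710 genes and calls below 0.05. The fit was tested on simulated data with independent noise for each gene, so that test does not cover differences that many genes of an array share. Precision is limited by the number of arrays.

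The Hox members and the related and marker lists were chosen with earlier results of these data known. All members were to be accounted for, with values per array for those called. From each related list the called genes were named, at most 4 by size of change, or the gene with the smallest p where none was called. Promoter and microRNA sequences came from RefSeq (GRCm38.p6). Same-numbered samples of the 2 groups had deviations that correlated at -0.11 to 0.04, so replicate numbers were not used as pairs. Alternatives were other normalizations, filters, pseudocounts and probe choices, variance trend, array weights, a replicate block, a Y-linked covariate and leaving out each array.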

Additional observations from a re-analysis of the deposited data

How the results depend on the processing

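Over the 13 settings that kept all arrays, the number of Hox genes called higher was 13 to 18 except when the level of Y-linked genes entered as a covariate, where it was 9; the number called lower was 1 in each. Over all genes, 3178 were called in the reported fit, 1647 with that covariate, and 1198 to 3563 with 1 array left out. The count was lower by more than 1.5 times without heterozygous array 1 (1689) or 2 (1376) or homozygous array 1 (1198) or 3 (1822). The cause was not tested. With the replicate block 16 Hox genes were called higher, 14 of them among the 15 reported (Hoxb1 was lost). The labels do not say whether same-numbered samples form pairs, so this is given as a count. Estimates that changed sign were small: Hoxb3 was 0.015 under quantile normalization, 0.017 under cyclic loess and 0.0113 with array weights, Hoxd10 was -0.0139, -0.0804 and -0.0155 under the same 3 settings and -0.0055 with the Y-linked covariate, and Hoxb7 was -0.0031 under median centring. With 1 array left out, the ranges that crossed 0 were -0.0685 to 0.10 (Hoxd10), -0.12 to 0.0142 (Hoxd11), -0.0949 to 0.0178 (Hoxb3), -0.0064 to 0.0359 (Hoxb7) and -0.0446 to 0.15 (Hoxb9). The median over the Hox genes was 0.17 under cyclic loess, 0.19 with a pseudocount of 16 and 0.21 to 0.28 with 1 array left out. Hoxa10 lost its call under quantile normalization, median centring, cyclic loess and a variance trend, Hoxc11 under quantile normalization and cyclic loess, and Hoxb1 under cyclic loess, while Hoxa7 gained a call under 6 settings. Hoxa11 was too dim to be tested under the stricter filter. Of all estimates of Hox genes over the alternatives, 634 kept direction and side of the threshold, 39 lost a call, 16 gained a call and 13 changed sign.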
